A study of Mus musculus with 8 samples.

Results

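The genes described here are 34 genes expressed by macrophages and other leukocytes. They are cell surface and cytoskeletal genes of all leukocytes, macrophage receptors, Fc receptors and their signalling adaptors, the chains of complement C1q, lysosomal and secreted proteins, and transcription factors of the lineage. They were taken from a list of marker genes by name or by the accession of the array probe, and Emr1 is the array's name for Adgre1. The array held 44 probes for them among 55681 probes in all, and 32 of the 34 genes were among the 24291 genes tested.

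RNA was measured on 8 one-colour arrays. Each was hybridised with 1 pool of 4 outflow tracts, the outlet of the looping heart, dissected from mouse embryos at E10.5. The KO pools (numbers 1, 2, 3 and 7) came from rescued Raldh2-/- embryos, which lack throughout the body the enzyme, now named Aldh1a2, that makes retinoic acid from retinaldehyde. The WT pools (numbers 1, 2, 5 and 7) came from rescued wild type littermates. Rescue means that the dams of both groups ate food with 0.1 mg/g all-trans-retinoic acid from E7.5 to E8.5. The contrast is therefore loss of the embryo's own synthesis after an early supply, and no unsupplemented embryo is part of it. Whether the tracts of a pool shared a litter is not given in the sources used here.

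Macrophages of this stage are thought to derive mainly from yolk sac progenitors, which reach the embryo with the circulation and then settle in its tissues, the heart included. Their survival depends on the receptor Csf1r, their identity on the transcription factor encoded by Spi1. Settled macrophages engulf dying cells, and the C1q chains, Trem2 and Tyrobp act in recognising such cells or in the signal that follows. An outflow tract also holds blood in its lumen, so circulating cells and tissue cells are both in the dissected piece.

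Each value is the log2 of a probe's processed signal over the 75th percentile of its array, called the relative signal. They compare pools for a given probe, and they do not rank genes, since probes differ in brightness. The array of WT pool 1 stood apart: 94.7% of its spots were well above background, where the other 7 arrays had 53.3% to 63.2%. The median signal was 2023 there and 40.0 to 83.0 elsewhere. Its median correlation with the other arrays over genes was 0.775, against 0.979 to 0.989. Differences between genotypes are therefore given with all 8 arrays and with the 7 that remain without WT pool 1. Aldh1a2, the targeted gene, was at 2.02, 2.01, 1.87 and 0.059 in KO pools, against 1.92, 3.21, 2.98 and 3.65 in WT pools 1, 2, 5 and 7. All KO pools lay below WT pools 2, 5 and 7, and WT pool 1 lay among the KO pools. Its difference was -1.45 (exact permutation test, two-sided, p = 0.0857). Without WT pool 1 it was -1.79 (exact permutation p = 0.0286, the smallest that 35 assignments can give). All 14 outflow tract and all 16 endothelial marker genes were well above background on all 7 of the remaining arrays. Tnnt2, Myh7, Isl1 and Hand2 were among them. So were all 16 erythroid and all 14 platelet genes. Of the genes listed, 5 of 17 lymphoid and 5 of 14 granulocyte and mast cell genes were. Counts as full for erythroid and platelet genes as for the tract do not tell it from its blood, and the tissue is as the labels give it. All KO arrays lay in 1 row of the slide and all WT arrays in the other, and the effect of the row cannot be told apart from that of the genotype. Each group has 4 pools on 1 array each, and p-values measure the spread between these pools.

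The probes that carry the results are printed here because their sequence decides what each signal can report. All are 60 bases long and are given 5′ to 3′, with their places on mm9 as the array files state them. The C1qc probe (chr4:136445766-136445825) was spotted 10 times on each array. The Tyrobp probe is placed across chr7:31200651-31202378, a span of 1728 bases, so its 60 bases are not contiguous in the genome. The Pf4 probe lies at chr5:91202275-91202334.
C1qc: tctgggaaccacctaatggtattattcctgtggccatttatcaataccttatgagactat
Tyrobp: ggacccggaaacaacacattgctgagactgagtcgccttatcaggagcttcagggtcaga
Pf4: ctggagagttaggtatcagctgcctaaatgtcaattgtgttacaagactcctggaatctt

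Lyz1 and Lyz2 encode near-identical lysozymes from neighbouring genes on chromosome 10, so the probes of these genes were set against each other. The Lyz1 probe lies at chr10:116724862-116724921 and the Lyz2 probe at chr10:116719175-116719234. Capitals mark the longest run that they share, which is 6 bases.
Lyz1: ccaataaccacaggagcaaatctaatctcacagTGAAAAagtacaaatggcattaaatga
Lyz2: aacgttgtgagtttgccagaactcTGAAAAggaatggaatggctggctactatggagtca

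Itgam, a chain of the leukocyte integrin that binds complement fragments, had 3 probes that did not report the same signal. The first printed is the brightest, at chr7:135261755-135261814, and stood for the gene under the rule applied to all genes. Capitals mark a CA repeat of 20 bases at its 5′ end. The other 2 probes, at chr7:135260275-135260334 and chr7:135212140-135212199, hold no such repeat.
Itgam, repeat probe: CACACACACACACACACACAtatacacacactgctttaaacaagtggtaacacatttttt
Itgam, probe B: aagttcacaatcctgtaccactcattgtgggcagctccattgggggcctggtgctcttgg
Itgam, probe C: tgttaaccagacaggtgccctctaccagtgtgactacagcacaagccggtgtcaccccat

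The repeat probe shared a run of 20 bases, on either strand, with 72 probes of 72 other genes, while probes B and C shared none. Over the 7 arrays its mean relative signal was 4.15, and the probes sharing the repeat ranged from -2.72 to 7.12 with a median of 4.97. Probes B and C had means of -3.95 and -4.53. What part of the repeat probe's signal came from Itgam was not tested, and its values are given below as those of the probe. Of all 44 probes, the only other one that shared a run of this length with a probe of another gene was 1 of Cx3cr1, with 1 such probe.

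Gene starts of 25 of the 34 genes were found in the RefSeq promoter table (GRCm38.p6), which holds 250 bases before to 50 bases after each start. The hexamer GAGGAA, the core of sites bound by the factor that Spi1 encodes, stood on either strand in the window of 18 of the 25 genes (72.0%), against 31.3% of 27025 genes. The longer GAGGAAGT, which contains the hexamer, stood in 5 of 25, against 3.69% of all genes; the 5 were Ctss, Cd53, C1qc, Pf4 and F13a1. A match of letters is a description and not a bound site. C1qc and Pf4 are printed as a gene that followed the common pattern over pools described below and a gene that did not. Each is shown for the 250 bases before the start on the gene's own strand, C1qc at chr4:136892915-136893164 (minus strand) and Pf4 at chr5:90772185-90772434 (plus strand). Capitals mark the reverse complement of GAGGAAGT, which begins 195 bases before the start in C1qc and 10 bases before it in Pf4.
C1qc promoter: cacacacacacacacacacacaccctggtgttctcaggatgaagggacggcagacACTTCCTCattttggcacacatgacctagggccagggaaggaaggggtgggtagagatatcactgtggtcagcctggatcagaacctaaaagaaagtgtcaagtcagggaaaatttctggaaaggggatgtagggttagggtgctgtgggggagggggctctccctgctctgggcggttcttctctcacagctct
Pf4 promoter: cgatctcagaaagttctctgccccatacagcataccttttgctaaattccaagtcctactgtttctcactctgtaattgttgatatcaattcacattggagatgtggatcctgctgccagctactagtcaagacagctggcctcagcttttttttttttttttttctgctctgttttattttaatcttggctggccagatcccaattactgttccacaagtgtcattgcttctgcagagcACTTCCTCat

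Loss of Raldh2 after the early rescue was not accompanied by a difference in these genes that passed the test. With limma and Benjamini-Hochberg adjustment, 0 of 32 genes had an adjusted p under 0.05 with 8 arrays or with 7, as did 0.0% of all genes tested in either comparison. The smallest adjusted p among the 32 was 0.735 with 8 arrays, a value that several genes shared, and 0.380 with 7 (Pf4). At an unadjusted p under 0.05 there were 0 of 32 with 8 arrays, where all genes gave 0.659% higher and 1.12% lower in KO. With 7 arrays there was 1 of 32, Pf4, which was lower, where all genes gave 6.24% higher and 4.35% lower. With array weights in limma, 0 of 32 passed the adjusted test as well. Under these weights 4 had an unadjusted p under 0.05: Cd14 and Itgam's repeat probe higher, Pf4 and Plek lower. The share of all genes at that p was not counted with array weights, so the 4 cannot be set beside it.

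The 4 KO values lay on 1 side of the WT values in 0 of the 32 genes with 8 arrays, where 3.95% of all genes had all KO pools higher and 1.54% had all lower. Without WT pool 1 this held for Pf4 alone, with all KO pools lower, against 6.55% higher and 4.88% lower among all genes. The median difference of the 32 genes, KO minus WT, was -0.12 with 8 arrays, with a range of -0.69 to 0.83, against 0.13 for all genes. Without WT pool 1 it was 0.25, with a range of -1.30 to 1.04, against 0.052 for all genes. The difference was above 0 in 14 of 32 genes with 8 arrays (57.1% of all genes) and in 24 of 32 with 7 (59.3% of all genes). The sign of the median thus turned with 1 array.

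**Figure D1:**
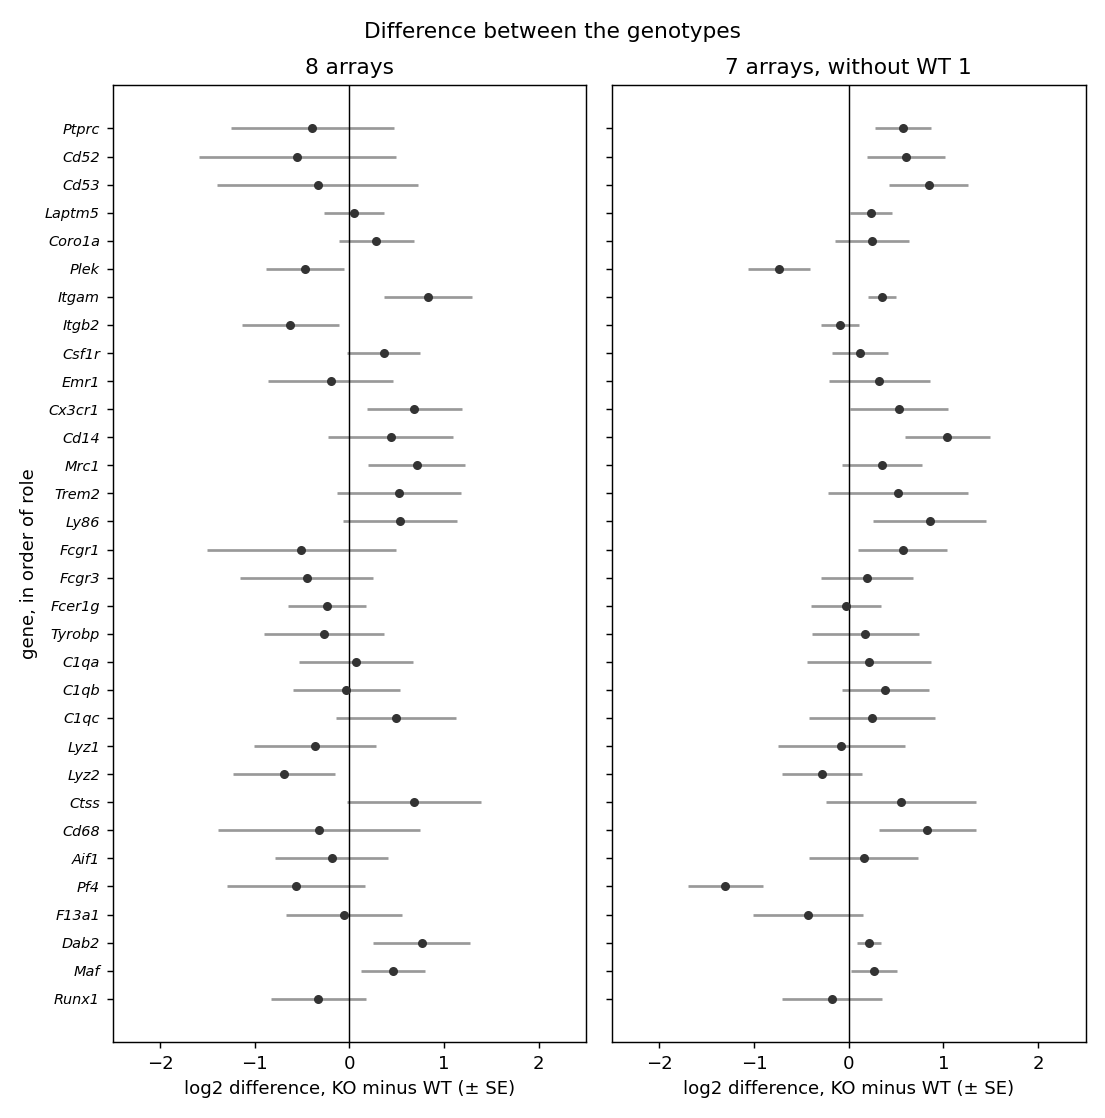
Difference of the log2 relative signal, KO minus WT, for the 32 genes tested, with its standard error, over all 8 arrays (left) and over 7 arrays without WT pool 1 (right). Most intervals span 0 on the left, and on the right Pf4 lies furthest below 0, at -1.30.

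The signal of these genes varied widely between pools of the same genotype. Over the 7 arrays the median residual SD, the spread between pools once the genotype means are taken out, was 0.705 for the 32 genes and 0.207 for all genes. It was above the median of all genes in 30 of 32; the exceptions were Dab2 and Itgam's repeat probe. It exceeded 0.573, the 90th percentile of all genes, in 23 of 32. With 8 arrays the medians were 0.959 and 0.668. The probes were also dimmer as a set, with a median relative signal of -1.80 against -0.53 for all genes; 25 of the 32 were well above background on all 7 arrays. The part of the lower signal in the spread was not tested. A wide spread was not particular to this set. Over the 7 arrays the median residual SD was 0.956 for erythroid genes, 0.473 for platelet genes and 0.531 for lymphoid genes. It was 0.545 for granulocyte and mast cell genes and 0.332 for blood progenitor genes. Endothelial and outflow tract genes had 0.278 and 0.286.

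**Figure D2:**
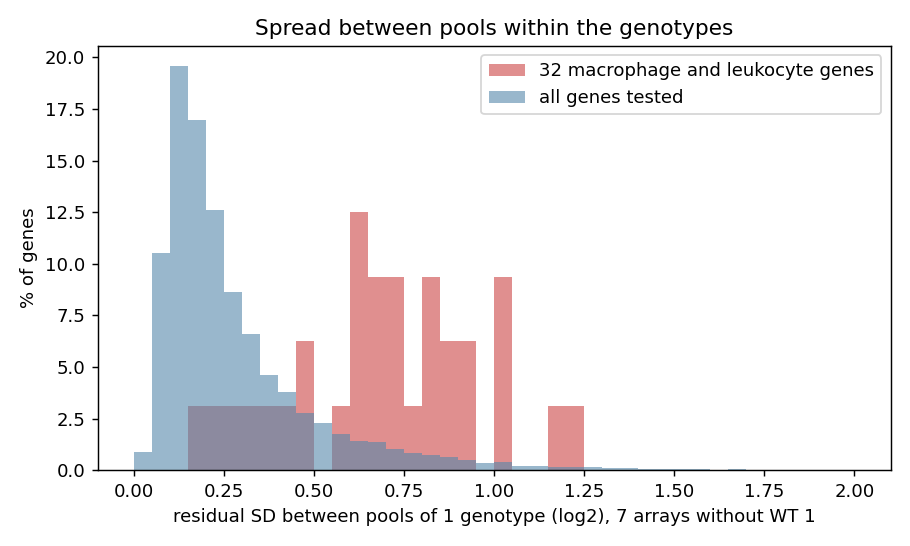
Share of genes by their residual SD between pools of a genotype (log2, 7 arrays without WT pool 1, bins of 0.05) for the 32 macrophage and leukocyte genes and for all 23670 genes tested on these arrays. The genes of the set have a median of 0.705 and all genes one of 0.207.

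The pools that were high were largely the same from gene to gene. Of the 32 genes, 20 were highest in KO pool 3 among the KO pools and highest in WT pool 2 among WT pools 2, 5 and 7, which held for 5.57% of all genes. KO pool 3 was the highest KO pool for 20 of the 32 (24.5% of all genes), and WT pool 2 the highest of its 3 for 27 (28.4% of all genes). The 20 genes were Ptprc, Cd52, Cd53, Laptm5, Coro1a, Csf1r, Emr1, Cx3cr1, Mrc1, Trem2, Ly86, Fcgr3, Fcer1g, Tyrobp, C1qa, C1qb, C1qc, Ctss, Aif1 and F13a1. After each gene's mean over 7 arrays was taken off, the median of the 32 genes was 0.20, -0.33, 0.71 and -0.16 in KO pools 1, 2, 3 and 7, against 0.69, -0.46 and -0.63 in WT pools 2, 5 and 7. KO pool 3 and WT pool 2 reached about the same level, and the groups overlapped. These 2 pools were picked after their values were seen, and the counts are a description. In WT pool 1 the median was 0.74, but 17 genes were highest and 9 lowest there among the WT pools. In RNA from whole tissue pieces, fewer leukocytes and less RNA per leukocyte cannot be told apart.

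**Figure D3:**
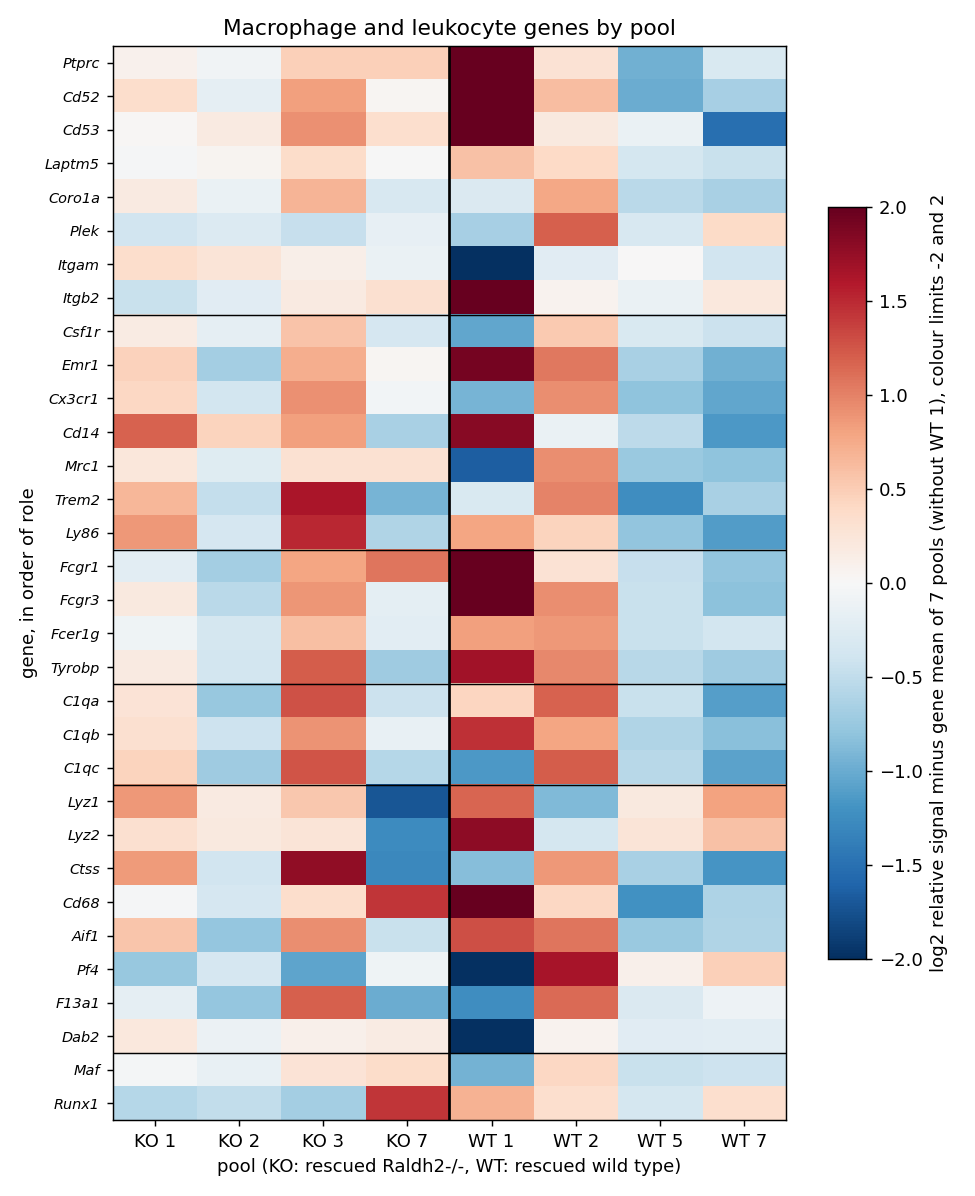
Log2 relative signal of each of the 32 genes tested in each pool, minus the gene's mean over the 7 pools other than WT 1; KO pools stand left of the black line and WT pools right of it, and horizontal lines part the roles. Columns KO 3 and WT 2 are red for most genes, WT 5 and WT 7 are blue, and WT 1 has the strongest colours of either sign.

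Ptprc, the leukocyte common antigen and the broadest marker of the lineage, was at -4.47, -4.62, -4.08 and -4.08 in KO pools 1, 2, 3 and 7, against -1.03, -4.27, -5.52 and -4.87 in WT pools 1, 2, 5 and 7. The probe of WT pool 7 was not well above background, and the KO values lay inside the WT range. Its difference was -0.39 ± 0.86 (SE, limma adjusted p = 0.812) with 8 arrays and 0.57 ± 0.30 (adjusted p = 0.529) without WT pool 1. The sign of Ptprc therefore rested on that array. Cd52 and Cd53, small surface proteins of leukocytes, behaved alike, with differences of -0.55 ± 1.04 and -0.34 ± 1.06 with 8 arrays and of 0.61 ± 0.41 and 0.84 ± 0.42 with 7. WT pool 1 was 3.85, 4.63 and 4.73 above the mean of the other WT pools for Ptprc, Cd52 and Cd53. Cd53 was not well above background in KO pool 7 or in WT pool 7. Laptm5, a lysosomal regulator of antigen receptor turnover, and Coro1a, an actin-binding protein of leukocytes, differed by 0.051 ± 0.32 and 0.29 ± 0.39 with 8 arrays and by 0.23 ± 0.22 and 0.25 ± 0.39 with 7.

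Plek, a protein kinase C substrate of platelets and leukocytes, ran otherwise. It was at -0.43, -0.32, -0.50 and -0.21 in KO pools, against -0.72, 1.15, -0.37 and 0.34 in WT pools 1, 2, 5 and 7. The KO pools were close together and WT pool 2 was far above the rest. The difference was -0.46 ± 0.41 with 8 arrays and -0.74 ± 0.32 with 7 (adjusted p = 0.735 and 0.473). Itgb2, the integrin chain that pairs with Itgam, differed by -0.09 ± 0.20 with 7 arrays and by -0.62 ± 0.52 with 8, where WT pool 1 was 2.12 above the other WT pools. For Itgam the repeat probe gave 0.83 ± 0.47 with 8 arrays, probe B -0.57 and probe C -0.63. With 7 arrays the repeat probe of Itgam gave 0.35 ± 0.15, probe B -0.25 and probe C 0.33, so the probes of this gene disagreed in sign both ways.

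Csf1r, the receptor through which macrophages receive their survival signal, was at 1.95, 1.60, 2.35 and 1.44 in KO pools, against 0.74, 2.31, 1.48 and 1.35 in WT pools 1, 2, 5 and 7. KO pool 3 and WT pool 2 were the highest, and the groups overlapped. The difference was 0.36 ± 0.39 with 8 arrays and 0.12 ± 0.30 with 7 (adjusted p = 0.735 and 0.893). Emr1, an adhesion receptor that marks mature mouse macrophages, was at -2.62, -3.75, -2.35 and -3.03 in KO pools, against -1.17, -2.02, -3.73 and -4.04 in WT pools 1, 2, 5 and 7. Among the 7 arrays WT pool 2 was highest and WT pool 7 lowest, with all KO pools between them. Its difference was -0.20 ± 0.66 with 8 arrays and 0.32 ± 0.54 with 7.

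Of the other receptors tested, Trem2, Ly86, Cx3cr1 and Mrc1 were also highest in KO pool 3 among KO pools and in WT pool 2 among WT pools 2, 5 and 7. Trem2, a lipid and apoptotic cell receptor, had its highest KO pool 5.89-fold above its lowest, and its highest WT pool 4.69-fold above its lowest without WT pool 1. Ly86, the partner of a Toll-like receptor relative, spanned 4.32-fold over KO pools and 2.96-fold over those 3 WT pools. Cx3cr1, the fractalkine receptor, spanned 2.44-fold and 3.89-fold, and Mrc1, the mannose receptor, 1.47-fold and 3.33-fold. With 8 arrays the differences of Trem2, Ly86, Cx3cr1 and Mrc1 were 0.53 ± 0.65, 0.53 ± 0.61, 0.69 ± 0.50 and 0.71 ± 0.51. With 7 arrays they were 0.52 ± 0.74, 0.85 ± 0.60, 0.53 ± 0.52 and 0.35 ± 0.42, and none passed the test. Cd14, the lipopolysaccharide co-receptor, had the highest difference of the 32 genes with 7 arrays, 1.04 ± 0.45 (adjusted p = 0.472), with KO pools at -2.48, -3.22, -2.85 and -4.32, against -3.79, -4.18 and -4.81 in WT pools 2, 5 and 7. KO pool 7 lay among the WT pools, and Cd14 was not well above background in WT pool 7. With 8 arrays its difference was 0.44 ± 0.66. Cd163, the haemoglobin scavenger receptor, was well above background in 0 of 4 KO pools and, among WT pools, in WT pool 1 only. It was not tested.

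Tyrobp, the adaptor that signals for Trem2 and other receptors, was at -0.77, -1.31, 0.26 and -1.66 in KO pools, against 0.74, 0.03, -1.50 and -1.65 in WT pools 1, 2, 5 and 7. KO pool 3 and WT pools 1 and 2 were high, and the remaining pools of both genotypes lay between -1.66 and -0.77. The difference was -0.27 ± 0.64 with 8 arrays and 0.18 ± 0.56 with 7 (adjusted p = 0.823 and 0.921). Fcer1g, the shared signalling chain of Fc receptors, differed by -0.23 ± 0.41 and -0.03 ± 0.37. Fcgr1 and Fcgr3, receptors for immunoglobulin G, differed by -0.51 ± 1.00 and -0.45 ± 0.70 with 8 arrays and by 0.57 ± 0.47 and 0.19 ± 0.48 with 7. Here too the sign turned on WT pool 1, which was 4.32 above the other WT pools for Fcgr1 and 2.57 above for Fcgr3. Fcgr1 was not well above background in KO pool 2 and WT pool 7, and Fcgr3 was not in WT pool 7.

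The C1q chains form the recognition part of the classical complement pathway and are made largely by macrophages, and their genes lie side by side on chromosome 4. C1qa was at -2.20, -3.25, -1.20 and -2.92 in KO pools, against -2.05, -1.29, -2.93 and -3.58 in WT pools 1, 2, 5 and 7. C1qb was at -1.40, -2.13, -0.82 and -1.88 in KO pools, against -0.26, -0.94, -2.33 and -2.56 in WT pools. C1qc was at -1.47, -2.62, -0.65 and -2.48 in KO pools, against -3.06, -0.70, -2.47 and -2.98 in WT pools. On the 7 arrays all 3 chains were highest in KO pool 3 and WT pool 2, next in KO pool 1, and lower in the other 4 pools, while on WT pool 1 C1qb was the highest and C1qc the lowest WT value. The differences with 7 arrays were 0.21 ± 0.66, 0.39 ± 0.46 and 0.24 ± 0.67 for C1qa, C1qb and C1qc, and with 8 arrays 0.07 ± 0.60, -0.03 ± 0.56 and 0.50 ± 0.64.

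The 10 spots of the C1qc probe show the error of single spots within an array, which leaves out labelling, hybridisation and scan. Their SD was 0.035 to 0.156, with 8 to 10 usable spots. The spots ran from -0.75 to -0.53 in KO pool 3 and from -2.82 to -2.47 in KO pool 2. The highest KO pool stood 3.93-fold above the lowest, and among WT pools 2, 5 and 7 the highest stood 4.87-fold above the lowest. With 1 array a pool, differences between arrays and between pools of tissue cannot be told apart.

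**Figure D4:**
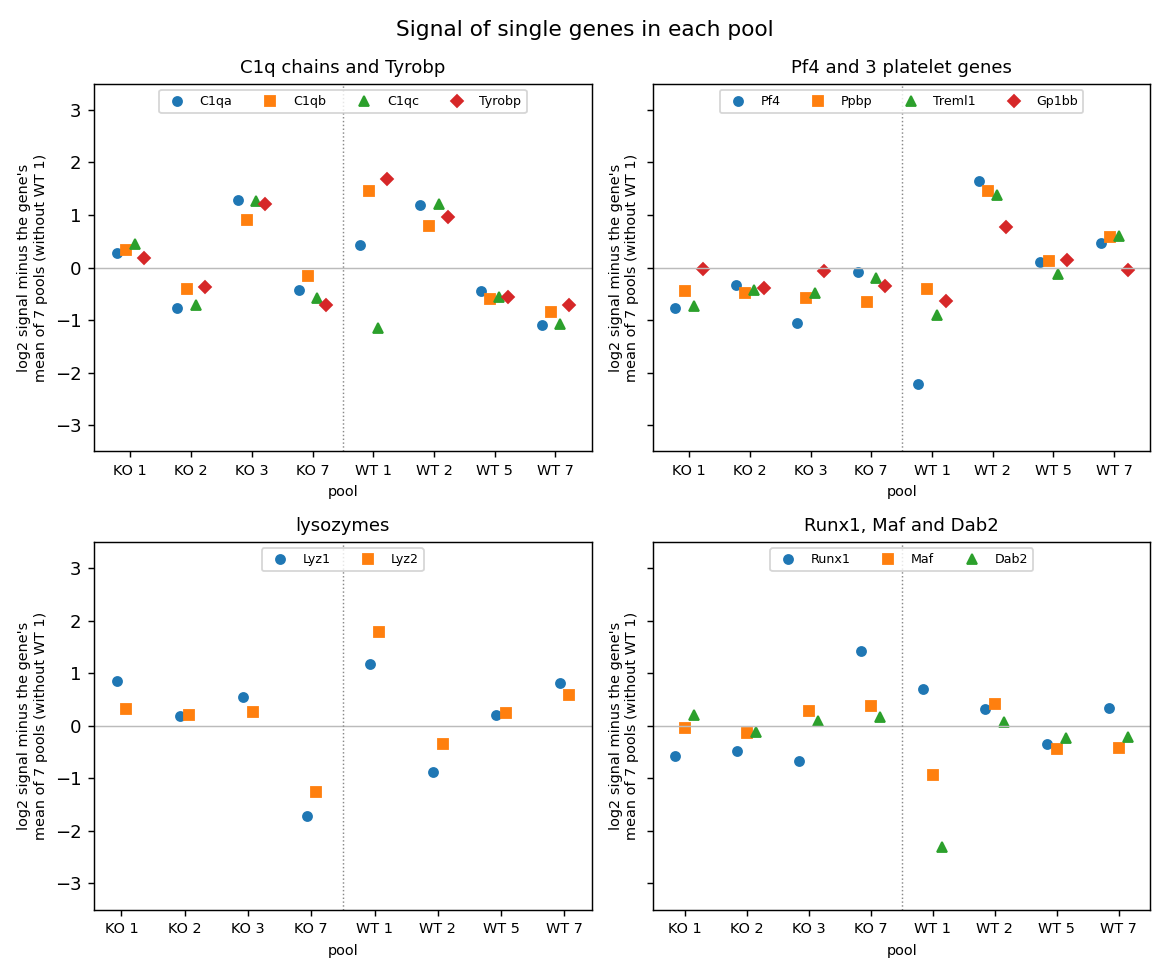
Log2 relative signal of single genes in each pool, minus the gene's mean over the 7 pools other than WT 1, for the C1q chains and Tyrobp, Pf4 with 3 platelet genes, the lysozymes, and Runx1, Maf and Dab2. The C1q chains peak in KO 3 and WT 2, all 4 KO pools lie below WT 2, 5 and 7 for Pf4, Ppbp and Treml1, and the lysozymes are lowest in KO 7.

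Ctss, a lysosomal protease that trims antigen-presenting molecules, had the widest span of the 32 genes over KO pools, 8.30-fold, and spanned 4.13-fold over WT pools 2, 5 and 7. Aif1, a calcium-binding protein of macrophage ruffles, and F13a1, the coagulation factor chain made by tissue macrophages, spanned 3.24-fold and 4.53-fold over KO pools. The differences of Ctss, Aif1 and F13a1 were 0.69 ± 0.71, -0.19 ± 0.60 and -0.056 ± 0.61 with 8 arrays and 0.55 ± 0.79, 0.16 ± 0.57 and -0.43 ± 0.58 with 7. Cd68, a lysosomal membrane protein, was above background in 1 of WT pools 2, 5 and 7, and differed by 0.83 ± 0.51 with 7 arrays and by -0.32 ± 1.07 with 8. A further F13a1 probe was well above background in WT pool 1 only.

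The lysozymes, enzymes that cleave bacterial walls, ranked the pools in another order. Lyz1 was at -0.74, -1.43, -1.06 and -3.32 in KO pools, against -0.44, -2.48, -1.41 and -0.79 in WT pools 1, 2, 5 and 7. Lyz2 was at -3.28, -3.40, -3.33 and -4.86 in KO pools, against -1.81, -3.94, -3.34 and -3.02 in WT pools. For both, KO pool 7 was the lowest of all and WT pool 2 the lowest WT pool, which is the pool where C1qa and most other genes of the set were high. The Lyz2 probe was not well above background in KO pool 7. With 7 arrays the differences were -0.08 ± 0.67 for Lyz1 and -0.28 ± 0.43 for Lyz2, and with 8 arrays -0.36 ± 0.64 and -0.69 ± 0.54. The probes share no run longer than the 6 bases marked above. Neither was set against the transcript of the other gene, so whether the Lyz1 and Lyz2 signals are separate readings was not tested.

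Dab2, an endocytic adaptor found in macrophages and in other cells, was nearly constant without WT pool 1. It was at 1.11, 0.78, 0.99 and 1.07 in KO pools, against -1.41, 0.96, 0.67 and 0.68 in WT pools 1, 2, 5 and 7. WT pool 2 lay among the KO pools and WT pool 1 far below every other pool. The difference was 0.76 ± 0.51 with 8 arrays and 0.22 ± 0.13 with 7 (adjusted p = 0.735 and 0.563). Its residual SD over 7 arrays, 0.152, was the smallest of the 32 genes.

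Pf4, a chemokine stored in platelet granules and also expressed in embryonic macrophages, gave the clearest separation. It was at 2.06, 2.49, 1.77 and 2.74 in KO pools, against 0.61, 4.48, 2.92 and 3.29 in WT pools 1, 2, 5 and 7. Every KO pool lay below WT pools 2, 5 and 7, while WT pool 1 lay below every KO pool. The means were 2.26 ± 0.43 in KO (SD, n = 4) and 3.56 ± 0.81 in those 3 WT pools. The difference was -1.30 ± 0.40, 2.47-fold lower in KO, with an unadjusted p of 0.0131 and an adjusted p of 0.380 in limma, which does not pass. With all 8 arrays it was -0.56 ± 0.73 (adjusted p = 0.735). Leaving out 1 pool at a time took the difference from -1.30 to -0.014.

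Of the 14 megakaryocyte and platelet genes, all of which were tested, 0 passed the adjusted test. With 7 arrays 3 had an unadjusted p under 0.05, all lower in KO, where 4.35% of all genes were lower at that p. A difference above 0 was found in 4 of 14, where 59.3% of all genes had one, and the median was -0.57. With 8 arrays 2 had such a p, both lower (1.12% of all genes), and 3 of 14 were above 0 (57.1% of all genes), with a median of -0.43. Ppbp, a chemokine of platelet granules encoded beside Pf4 in the mouse genome, was at -0.89, -0.93, -1.02 and -1.11 in KO pools, against -0.86, 1.02, -0.33 and 0.13 in WT pools 1, 2, 5 and 7. The KO pools lay below all 4 WT pools, as for 1.54% of all genes, by a small margin for WT pool 1. Ppbp differed by -1.26 ± 0.29 with 7 arrays and by -0.97 ± 0.40 with 8 (adjusted p = 0.345 and 0.735). Treml1, a receptor of platelet granules, differed by -1.09 ± 0.33 with 7 arrays and -0.71 ± 0.47 with 8. Gp1bb, a chain of the platelet receptor for von Willebrand factor, differed by -0.50 ± 0.21 with 7 arrays and -0.27 ± 0.34 with 8. Leaving out 1 pool at a time took Ppbp from -1.26 to -0.63, Treml1 from -1.09 to -0.33 and Gp1bb from -0.50 to -0.029. Of 16 erythroid genes 14 had a difference above 0 with 7 arrays and 16 with 8, with 0 at an unadjusted p under 0.05 in limma and 0 past its adjusted test. Blood in the lumen was not measured apart, and the part of blood cells in the Pf4 values was not tested.

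Among the transcription factors, Spi1 was near the limit of the array. It was well above background in 0 of 4 KO pools and in WT pools 1 and 2, at -5.25, -5.74, -5.48 and -6.79 in KO pools, against -0.75, -4.90, -6.75 and -5.13 in WT pools 1, 2, 5 and 7. It was not tested, and no fold is given. Maf, a factor of macrophage differentiation that also acts in other tissues, was at -1.11, -1.21, -0.79 and -0.69 in KO pools, against -2.01, -0.65, -1.51 and -1.48 in WT pools. WT pool 2 was the highest and WT pool 1 the lowest of the 8. Its difference was 0.46 ± 0.34 with 8 arrays and 0.26 ± 0.24 with 7 (adjusted p = 0.735 and 0.708).

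Runx1, which is needed for blood cells to form from endothelium, was at -2.68, -2.60, -2.79 and -0.69 in KO pools, against -1.42, -1.79, -2.47 and -1.78 in WT pools 1, 2, 5 and 7. KO pool 7 was far above the other KO pools, which lay together below the WT pools. The difference was -0.33 ± 0.50 with 8 arrays and -0.18 ± 0.53 with 7, and -0.83 with KO pool 7 left out (limma adjusted p = 0.784). On the other Runx1 probe KO pool 7 was also the highest KO pool, but close to the rest. That probe was at -4.21, -4.26, -4.19 and -3.87 in KO pools, against -3.15, -2.64, -3.91 and -3.63 in WT pools. KO pool 7 was also the pool with the lowest Aldh1a2 signal, 0.059.

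Genes with more than 1 probe allowed the order of the pools to be read again. There were 9 further probes, of Laptm5, Itgam, Csf1r, Emr1, Cx3cr1, Maf and Runx1, that did not stand for their gene and were above background on at least 3 of the 7 arrays. KO pool 3 was the highest KO pool for 5 of the 9 and WT pool 2 the highest of WT pools 2, 5 and 7 for 8, and both held for 4. Over all 41 such probes both held for 24. Laptm5, Emr1 and Cx3cr1 gave the same highest pools with either probe, while the probes of Csf1r, Itgam, Maf and Runx1 differed in them. The probes of a gene measure the same RNA and are no replicates.

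**Figure D5:**
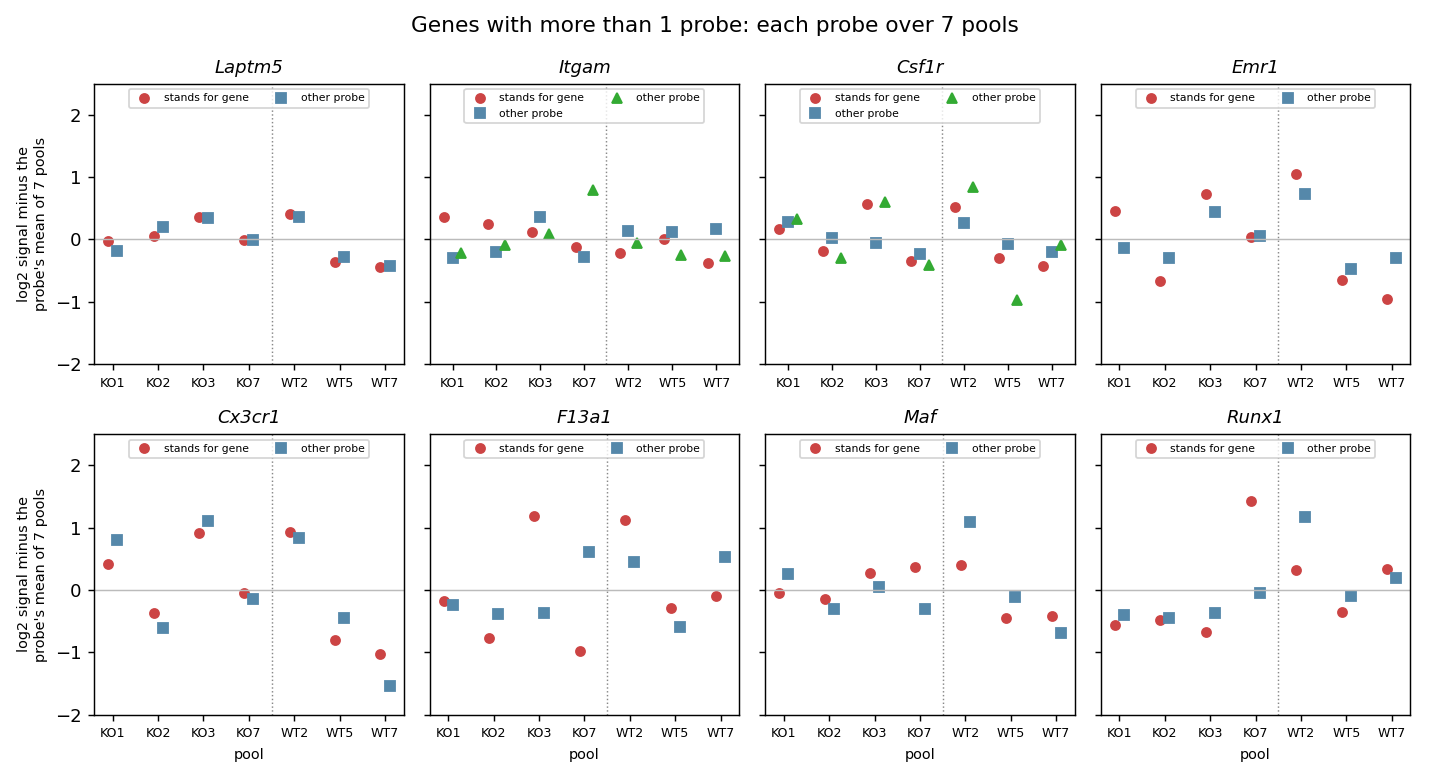
Log2 relative signal of each probe minus that probe's mean over 7 pools (without WT 1), for the 8 genes with more than 1 probe; KO pools stand left of the dotted line and WT pools right of it. The probes of Laptm5, Emr1 and Cx3cr1 follow each other over the pools, and those of Itgam, F13a1 and Runx1 part in KO 7. The further F13a1 probe was well above background on 0 of these 7 arrays.

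A wider list of macrophage and myeloid genes showed whether the pool order reached beyond the 34. Of 71 genes listed, 51 were tested, and 23 of them (45.1%) were highest in KO pool 3 and in WT pool 2 as above, against 5.57% of all genes. Its centred medians were 0.018, -0.093, 0.35 and -0.20 in KO pools 1, 2, 3 and 7, against 0.39, -0.30 and -0.15 in WT pools 2, 5 and 7. The same joint order held for 0 of 16 erythroid, 0 of 14 platelet, 0 of 15 blood progenitor and 0 of 5 lymphoid genes. It held for 0 of 9 granulocyte and mast cell, 0 of 16 endothelial and 0 of 14 outflow tract genes. Of 19 ligands and partners of the set it held for 0. At the share of all genes, lists this short would hold few or none. WT pool 2 alone was highest of its 3 for 13 erythroid, 12 platelet, 10 blood progenitor and 3 lymphoid genes. It was so for 7 endothelial, 2 granulocyte and mast cell and 2 outflow tract genes and 8 ligands and partners (28.4% of all genes). Erythroid genes had a centred median of -0.52 in KO pool 3 and 0.91 in WT pool 2, so they were low in one of these pools and high in the other.

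By genotype, the wider myeloid list gave 31 of 50 genes above 0 with 7 arrays (59.3% of all genes), with a median of 0.14. With 8 arrays it gave 27 of 51 (57.1% of all genes), with a median of 0.0029. At an unadjusted p under 0.05 with 7 arrays 1 was higher (6.24% of all genes) and none lower (4.35% of all genes). It was Ccl6, a chemokine of myeloid cells, at 1.54 ± 0.63 (0.90 ± 0.78 with 8 arrays). With 8 arrays there was none, and the adjusted test of limma called none. Itgax, an integrin chain of dendritic cells and macrophages, was at 1.51 ± 0.65 and Cebpa, a factor of myeloid commitment, at -0.69 ± 0.31 with 7 arrays, against 0.54 ± 0.99 and -0.68 ± 0.34 with 8. Among ligands and partners, 3 of 18 were lower at an unadjusted p under 0.05 with 7 arrays (4.35% of all genes). With 8 arrays 1 of 19 was lower (1.12% of all genes), and none was higher at that p with 7 or 8. C3, the complement protein acted on after C1q has bound, was at -1.50, -1.64, -1.50 and -1.54 in KO pools, against 0.41, -0.07, -0.93 and -0.11 in WT pools 1, 2, 5 and 7. All KO pools lay below all WT pools, as for 1.54% of all genes. The difference was -1.37 ± 0.32 with 8 arrays and -1.18 ± 0.21 with 7, with adjusted p of 0.735 and 0.325 in limma, so it did not pass. Vcam1, an adhesion molecule that holds leukocytes, and Ccl2, a chemokine that draws monocytes, were at -0.44 ± 0.16 and -1.12 ± 0.46 with 7 arrays. With 8 arrays they were at 0.13 ± 0.54 and -0.84 ± 0.50, so the sign of Vcam1 turned.

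Other blood lineages were read from their own lists. Blood progenitor genes had a difference above 0 in 13 of 14 with 7 arrays (59.3% of all genes) and in 11 of 15 with 8 (57.1% of all genes). With 7 arrays the median was 0.30, and 3 were higher at an unadjusted p under 0.05 (6.24% of all genes), Gata2 (0.67 ± 0.22), Cbfb (0.30 ± 0.11) and Lmo2 (0.48 ± 0.19). With 8 arrays they were at 1.02 ± 0.41, 0.83 ± 0.50 and 1.02 ± 0.52, and Gata2 alone had such a p (0.659% of all genes). Granulocyte and mast cell genes gave 6 of 9 above 0 with 7 arrays, with 1 higher (Elane) and 1 lower (Ltf) at that p, and 4 of 9 with 8 arrays, with Ltf alone at that p; 5 of the 14 listed were too dim to test. Lymphoid genes were mostly dim, with 5 of 17 tested and 0 at that p, Lck at 0.42 ± 0.38 among them (0.75 ± 0.47 with 8 arrays). Endothelial genes gave 1 higher (Tie1, 0.35 ± 0.13) and 2 lower at that p with 7 arrays, the scavenger receptor Stab2 (-0.87 ± 0.27) and the hyaluronan receptor Lyve1 (-0.94 ± 0.29), which some macrophages also express. With 8 arrays Tie1, Stab2 and Lyve1 were at 0.82 ± 0.46, -0.98 ± 0.32 and -0.78 ± 0.35, and only Stab2 had such a p. Outflow tract genes gave 6 of 14 above 0 with 7 arrays, with Sema3c, a guidance cue of the tract, at 0.84 ± 0.24 (1.20 ± 0.42 with 8 arrays) the only one at that p, and 14 of 14 above 0 with 8 arrays. None of these genes passed the adjusted test with 7 or 8 arrays. Of all genes, 6.24% were higher and 4.35% lower at that unadjusted p with 7 arrays, and 0.659% and 1.12% with 8.

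The genes whose signal was most like the mean of the 8 pan-leukocyte genes over the 7 arrays were Lrrtm1, D230040J21Rik, Ifi202b, Il6ra and 1 unnamed transcript of chromosome 11. Their Pearson correlations were 0.982, 0.977, 0.976, 0.975 and 0.972, and Spearman's rho was 0.929 to 1.00. Without WT pools 5 and 7, the 2 arrays farthest from the median of that mean, the correlations over 5 arrays were 0.914 to 0.989. They were picked as the highest of all genes, and the 8 genes averaged include Itgam's repeat probe. Il6ra, the interleukin-6 receptor chain, was at -2.10, -2.36, -1.42 and -2.03 in KO pools, against 1.62, -1.66, -2.69 and -2.90 in WT pools 1, 2, 5 and 7. It was highest in KO pool 3 and, without WT pool 1, in WT pool 2. The mean that it was picked to follow has the same highest pools, at -1.12 and -1.10, so this order came with the choice.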

How the data were processed

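Each array held RNA of 1 pool of 4 outflow tracts, from 50 ng of total RNA with an integrity number over 8.0, per the labels' protocols. The authors deposited the signals of each array as intensity, made with Feature Extraction 10.7.3.1, with background subtracted and detrended within the array, per the file headers. The deposited matrix equalled those signals within 0.497%. Genes were named through accessions (26056 of 55681 probes matched) or the files' names. Probes had to be well above background in 3 or more pools of a genotype (33438 probes, 34 of them lost to unusable spots), and the brightest kept probe stood for its gene. Values were log2 ratios of the signal to the 75th percentile of its array. KO minus WT was fitted with limma 3.58.1 in R 4.3.3 (lmFit, eBayes, two-sided, Benjamini-Hochberg over all genes, threshold 0.05), after a test on simulated data. The genes and lists were chosen with earlier results of these data known. Every gene of the set is accounted for; values per pool are given for genes with no overlap between genotypes or an unadjusted p under 0.05, and for 14 genes of known roles; Plek, Cd14, Ppbp, C3, Il6ra and the further probe of Runx1 were chosen after their values were seen. From each other list up to 3 genes with the smallest unadjusted p without WT pool 1 are eligible to be named. Alternatives were quantile and normexp scaling, the matrix values, no filter, mean of probes, array weights, a block for pool number, a block for the array's place on the slide, and leaving out each pool. The labels state no pairing of pools, and same-numbered pools were not treated as pairs. Deviations of pools 1, 2 and 7 from their group means over 8 arrays correlated at r of -0.151, 0.324 and -0.406 between the genotypes. WT pool 1 enters these means, so the values cannot exclude pairing. The number of arrays limits the precision.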

Additional observations from a re-analysis of the deposited data

Results flagged for a closer look

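A pool was set apart when its gap to the nearest pool of its genotype took nearly the whole range of the 4 values (Dixon's test, 95% level). Of 124 groups of 4 checked, 14 held such a pool, where chance gives about 1 in 20, or 6.2, and the genes are not independent. The genes checked from other lists, Vcam1, Cbfb, Lmo2 and Tie1 among them, were chosen by their small limma p without WT pool 1. That choice favours close values in the remaining pools, so the count cannot be judged against 6.2. WT pool 1 accounted for 7 of the 14, with a median processed signal of 2023 on its array and log2 relative signals of -0.82 for Itgb2, -1.41 for Dab2, 0.62 for Vcam1, 2.59 for Cbfb, -0.57 for Lmo2 and -0.27 for Tie1. KO pool 7 accounted for 3, being lowest of the KO pools for Lyz2 at -4.86 and for Aldh1a2 at 0.059, and highest for Runx1 at -0.69. WT pool 2 was the highest WT pool for Cx3cr1 at 0.55 and for Trim10 at 0.80. KO pool 2 was the lowest KO pool for Mrc1 at -2.54, and KO pool 1 the highest for Tpsb2 at -1.12.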

How the results depend on the processing

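Counts of genes past the adjusted test stayed at 0 under every alternative run except array weights, where 8 of all genes passed, none of them macrophage or leukocyte genes. At an unadjusted p under 0.05 the count of the set was 0 with all arrays, 1 with normexp background, 4 with array weights and 0 to 2 when 1 pool was left out. Without WT pool 2 the 2 were Cx3cr1 and Mrc1, both higher, and without KO pool 7 the 1 was Runx1, lower. The share of all genes at that p was counted without WT pool 1 but under no other alternative. The other counts therefore have no share of all genes beside them. The median difference of the set ran from -0.35 to 0.25 when 1 pool was left out, and was 0.28 with quantile scaling, 0.16 with normexp and 0.23 with array weights, so it has no settled sign. Aldh1a2 was lower in KO in every setting, from -1.79 to -0.97 when 1 pool was left out, -1.82 with quantile scaling and -1.80 with normexp, where its exact permutation p fell to 0.0286. With the pool number as a replicate block, the set's median was -0.51, Aldh1a2 was at -1.57 and no gene passed. The labels state no pairing by pool number. No macrophage or leukocyte gene and no named gene of the other lists passed the adjusted test in any setting, and the signs of small differences turned, for causes that were not tested. Under quantile scaling the turned values were Ptprc 0.048, Cd53 0.096, Plek 0.016, Emr1 0.40, Fcgr3 0.27, C1qb 0.065, Lyz2 0.066, F13a1 0.90, Runx1 0.51, Cebpa 0.044, Vcam1 -0.13, Gp1bb 0.58 and Elane -0.27. Under normexp they were Ptprc 0.033, Emr1 0.21, Fcgr3 0.10, C1qb 0.084, Lyz1 0.034, Lyz2 0.00016, F13a1 0.29, Runx1 0.27, Vcam1 -0.14, Gp1bb 0.10 and Elane -0.27. Under array weights they were Ptprc 0.48, Cd52 0.58, Cd53 0.57, Emr1 0.27, Fcgr1 0.17, Fcgr3 0.10, Tyrobp 0.16, C1qb 0.34, Lyz1 0.43, Lyz2 0.020, Cd68 0.53, Aif1 0.22, Vcam1 -0.39, Cd4 0.12 and Cd3e -0.15. The replicate block turned Laptm5 (-0.17), Coro1a (-0.027), Trem2 (-0.26), Ly86 (-0.055), C1qa (-0.48) and Elane (-0.11), and the mean of probes turned Itgam (-0.12), Maf (-0.26) and Vcam1 (-0.14). Some alternatives were chosen after seeing the data. Over 7 arrays with quantile scaling the turned values were Ptprc 0.28, Cd52 0.51, Cd53 0.64, Emr1 0.16, Fcgr1 0.33, Tyrobp 0.12, C1qb 0.31, Cd68 0.63, Aif1 0.085, Vcam1 -0.46, Cd4 0.12 and Cd3e -0.13, and with the mean of probes Ptprc 0.57, Cd52 0.61, Cd53 0.84, Emr1 0.18, Fcgr1 0.57, Fcgr3 0.19, Tyrobp 0.18, C1qb 0.39, Cd68 0.83, Aif1 0.16, Vcam1 -0.41, Cd4 0.13 and Cd3e -0.12. Itgam's probes B and C gave -0.57 and -0.63, and probe B -0.25 over 7 arrays. Under quantile scaling the joint order of KO pool 3 and WT pool 2 held for 21 of 32 genes and 7.70% of all genes. When 1 pool was left out the turning genes ranged over -0.92 to 0.57 (Ptprc), -1.15 to 0.61 (Cd52), -1.07 to 0.84 (Cd53), -0.11 to 0.23 (Laptm5), -0.63 to 0.32 (Emr1), -1.02 to 0.57 (Fcgr1), -0.90 to 0.19 (Fcgr3), -0.65 to 0.18 (Tyrobp), -0.32 to 0.46 (C1qa), -0.38 to 0.39 (C1qb), -0.76 to 0.20 (Lyz1), -0.95 to 0.83 (Cd68), -0.52 to 0.16 (Aif1), -0.52 to 0.36 (F13a1), -0.44 to 0.38 (Vcam1), -0.070 to 0.35 (Elane), -0.17 to 0.13 (Cd4) and -0.12 to 0.15 (Cd3e). Low signal limits Spi1, Cd163, Ptprc, Cd53, Cd14, Fcgr1, Fcgr3 and Cd68 most.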
